A study of Arabidopsis thaliana and Zea mays with 12 samples.

Results

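The 26S proteasome is the protease that degrades ubiquitin-tagged proteins in plant cells, and 37 genes for its subunits were examined here among the 27411 genes of a leaf expression table. The members were chosen by gene ID: 12 genes for the alpha subunits and 11 for the beta subunits of the 20S core, 10 for the RPT ATPases, and the genes for RPN10, RPN11, RPN1A and RPN12a. All 37 had a value in both libraries and an entry in the reference annotation. Of these genes, 26 formed 13 pairs of paralogs that encode the same subunit, and 11 entered as the only member for their subunit.

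The study asked where N4-acetyldeoxycytosine, an acetylated DNA base, lies in the Arabidopsis genome and how it relates to gene expression. It comprised 12 samples, of which 2 were RNA-seq replicates of wild-type (WT) Col-0 leaves, taken from untreated plants grown for 3 weeks at 22 °C. The other 10 samples, DNA immunoprecipitation and input libraries of WT, met1, rdd and B73 maize, were not analysed here. The methods call the RNA-seq samples biological replicates, and no genotype or treatment stood against them, so levels were described within WT leaves and no test between conditions was possible. For a value with 2 unpaired replicates on each side, a two-sided exact permutation test cannot give a p below 0.333.

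Levels are given as FPKM, fragments per kilobase of exon scaled to the mapped fragments of the library, which sets genes of different length on one scale per length. In genes with a single transcript, low FPKM values multiplied by exon length gathered near 10.7 in replicate 1 and 9.47 in replicate 2. These values, sought within a preset range only, were taken as a single fragment. They put replicate 2 at about 1.13 times the depth of replicate 1. On that scale about 311 to 10872 fragments lay behind a member in a library, so that counting error alone was about 5.67% at the lowest member. The leaf markers CAB1, RBCS1A, RCA and CAB3 averaged from 383 FPKM for RCA to 40786 FPKM for CAB1. The 4 seed and 3 flower markers all stayed below 1 FPKM, of the pollen markers PPME1 and VGD1 were listed at 0 while TUA1 averaged 7.54 FPKM, and of the root markers PYK10 averaged 7.50 FPKM, SCR 1.02 FPKM and RHD6 was listed at 0. In whole leaves, fewer cells of a type and less RNA per cell cannot be told apart.

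The 20S core is a barrel of stacked rings, with outer rings of alpha subunits, which gate the entry, and inner rings of beta subunits, which carry the peptidase sites. The regulatory particle caps the barrel. Its base holds a ring of RPT ATPases, which unfold substrates and thread them into the core, together with RPN subunits that serve as scaffolds or ubiquitin receptors. Its lid consists of further RPN subunits, among them RPN11, which removes ubiquitin from the substrate. In Arabidopsis many subunits are encoded by a pair of genes. A short promoter motif, TGGGC, is known from proteasome genes of Arabidopsis as a proteasome-related element.

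All 37 genes were above 1 FPKM on average, against 47.7% of all genes, and 29 were above 10 FPKM, against 19.6% of all genes. The median over the members was 16.0 FPKM, against 0.82 FPKM over all genes and 6.76 FPKM over the 13074 genes above 1 FPKM. In the top quartile of all genes, which began at 6.10 FPKM, lay 31 of the 37 members, against 25% of all genes by construction. The 6 outside it were RPN1A and the RPT genes RPT2b, RPT4A, RPT5B, RPT6A and AT5G20000. RPT6A, at 6.08 FPKM, lay just outside the boundary, and AT3G26340, at 6.24 FPKM, just inside it. Together the 37 genes made up 0.104% of the summed FPKM in replicate 1 and 0.0964% in replicate 2.

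**Figure D1:**
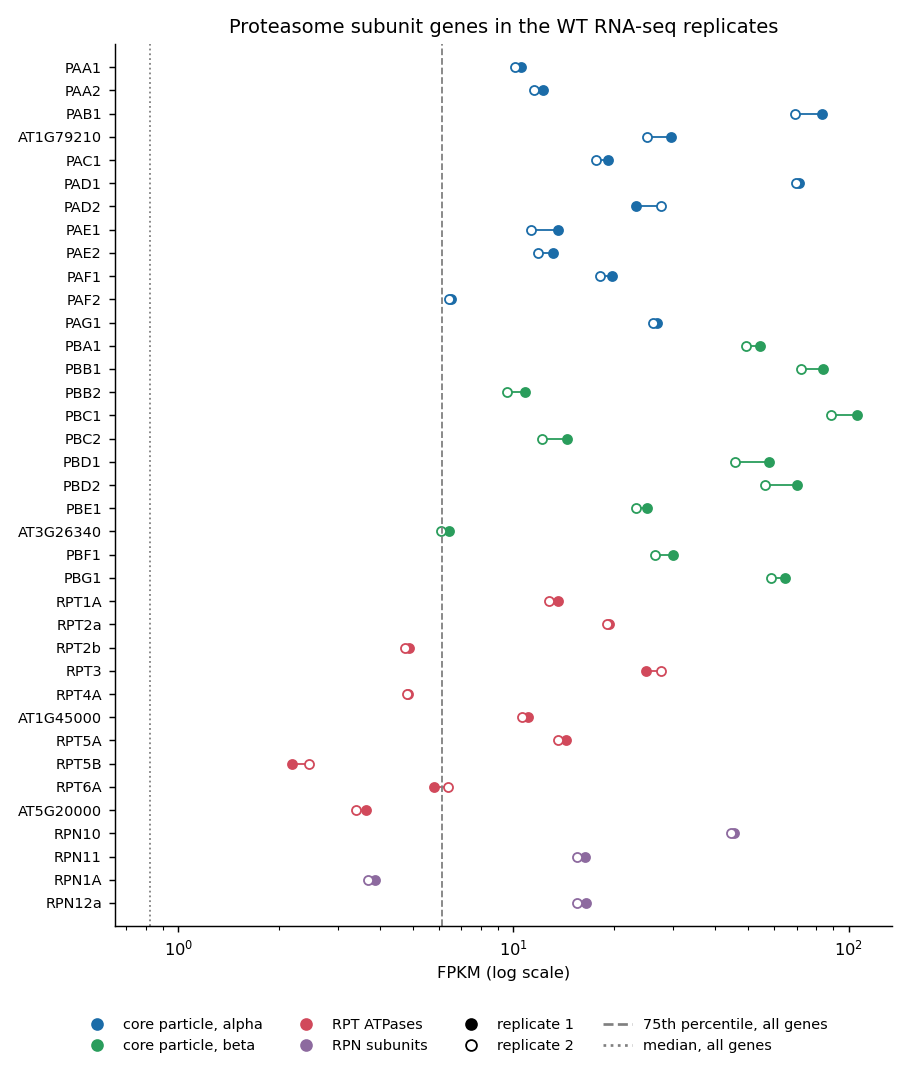
FPKM (log scale) of each of the 37 genes in replicate 1 (filled) and replicate 2 (open), coloured by class, with the median and the 75th percentile of all genes as vertical lines. All 23 core genes lay at or above the 75th percentile of 6.10 FPKM on average, and the RPT genes reached down to 2.32 FPKM for RPT5B.

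The 12 alpha genes had a median of 18.7 FPKM and ranged from 6.47 FPKM for PAF2 to 76.2 FPKM for PAB1. PAB1 (AT1G16470) had 83.2 and 69.1 FPKM in the replicates, and its paralog AT1G79210 had 29.6 and 24.98 FPKM. PAD1 (AT3G51260) had 70.8 and 69.8 FPKM, and PAD2 (AT5G66140) had 23.2 and 27.6 FPKM. In both subunits the first copy lay above the second in each library, with no overlap between the replicate values. The subunits PAC and PAG were represented by a single gene each. PAC1 (AT3G22110) had 19.2 and 17.7 FPKM, and PAG1 (AT2G27020) had 26.8 and 26.05 FPKM, so that both single genes lay well below PAB1 and PAD1.

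The remaining alpha pairs were lower. PAA1 had 10.54 and 10.12 FPKM and PAA2 had 12.3 and 11.6 FPKM, a small difference with the second copy higher in each library. PAE1 had 13.6 and 11.3 FPKM and PAE2 had 13.1 and 11.8 FPKM, and these values overlapped. PAF1 had 19.7 and 18.1 FPKM, against 6.50 and 6.43 FPKM for PAF2, which was the lowest alpha gene. PAF2 shares 1652 bp of its span with AT1G47260 on the opposite strand, a gene that averaged 15.5 FPKM. No source used here says whether the counting used strand, so reads from that stretch cannot be told apart.

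The 130 bases before the annotated start of the PAD genes show how the motif is placed in a pair that differed in level. They lie on TAIR10.1 at chr3:19030796-19030925 on the plus strand for PAD1 and at chr5:26438772-26438901 on the minus strand for PAD2. Each is written 5′ to 3′ along its gene, with TGGGC or its reverse complement GCCCA in capitals.
PAD1: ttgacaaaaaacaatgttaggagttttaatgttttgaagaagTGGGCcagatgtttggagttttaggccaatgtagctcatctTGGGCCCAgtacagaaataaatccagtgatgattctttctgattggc
PAD2: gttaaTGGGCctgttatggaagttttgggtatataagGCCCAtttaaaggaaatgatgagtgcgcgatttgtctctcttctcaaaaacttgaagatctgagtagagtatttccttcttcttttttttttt
PAD1 held 3 matches, of which one on each strand overlapped in a single palindrome, and PAD2 held 2 matches farther from its start.

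The 11 beta genes had the highest class median, 51.8 FPKM, and ranged from 6.24 FPKM for AT3G26340 to 97.1 FPKM for PBC1. The beta-type subunits PBA, PBB and PBE correspond to the proteolytic subunits beta1, beta2 and beta5 of other eukaryotes. PBA1 (AT4G31300) had 54.4 and 49.3 FPKM as the only member for its subunit. For PBB, PBB1 (AT3G27430) had 83.8 and 72.2 FPKM, against 10.8 and 9.54 FPKM for PBB2 (AT5G40580). PBE1 (AT1G13060) had 24.96 and 23.3 FPKM, against 6.41 and 6.07 FPKM for AT3G26340. In both pairs one copy carried most of the signal, and the summed PBE level lay below that of PBA and PBB in each library.

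Among the beta subunits without a peptidase site, PBC1 (AT1G21720) was the highest member of the whole set, with 105.9 and 88.3 FPKM, against 14.4 and 12.2 FPKM for PBC2 (AT1G77440). PBD1 (AT3G22630) had 57.9 and 45.7 FPKM, and PBD2 (AT4G14800) had 70.0 and 56.5 FPKM. The PBD values overlapped between the copies, although PBD2 was higher within each library. PBF1 had 29.9 and 26.5 FPKM, and PBG1 had 64.8 and 58.7 FPKM.

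The stretches before the start of the PBB and PBD genes set the most unequal pair beside a pair of nearly equal level. On TAIR10.1 they lie at chr3:10152328-10152457 (plus strand, PBB1), chr5:16250926-16251055 (minus strand, PBB2), chr3:8010863-8010992 (minus strand, PBD1) and chr4:8500063-8500192 (plus strand, PBD2). Capitals again mark TGGGC or GCCCA.
PBB1: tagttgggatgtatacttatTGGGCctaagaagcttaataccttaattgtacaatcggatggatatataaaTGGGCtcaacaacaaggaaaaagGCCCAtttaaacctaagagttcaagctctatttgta
PBB2: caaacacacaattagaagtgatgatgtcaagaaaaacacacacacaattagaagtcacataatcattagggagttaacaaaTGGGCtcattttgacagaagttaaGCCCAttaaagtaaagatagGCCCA
PBD1: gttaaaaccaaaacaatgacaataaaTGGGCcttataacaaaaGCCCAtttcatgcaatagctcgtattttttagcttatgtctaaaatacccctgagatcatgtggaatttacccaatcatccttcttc
PBD2: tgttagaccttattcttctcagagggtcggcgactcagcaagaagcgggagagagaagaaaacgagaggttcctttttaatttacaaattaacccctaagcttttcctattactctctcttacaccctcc
PBB1 and PBB2 held 3 matches each, PBD1 held 2 and PBD2 held none. Whether the number of matches went with the level of a copy was not tested.

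The 10 RPT genes had a median of 8.45 FPKM and ranged from 2.32 FPKM for RPT5B to 26.3 FPKM for RPT3. RPT3 (AT5G58290) had 24.9 and 27.6 FPKM, and RPT1A (AT1G53750) had 13.6 and 12.7 FPKM. Both entered as the only gene for their ATPase. RPT2a (AT4G29040) had 19.3 and 19.1 FPKM, against 4.88 and 4.73 FPKM for RPT2b (AT2G20140). RPT5A (AT3G05530) had 14.3 and 13.6 FPKM, against 2.19 and 2.45 FPKM for RPT5B (AT1G09100). Thus RPT2 and RPT5 were each dominated by the first copy in both libraries.

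For RPT4 the order was the other way round, with 4.85 and 4.83 FPKM for RPT4A (AT5G43010), against 11.0 and 10.6 FPKM for AT1G45000. RPT6A (AT5G19990) had 5.78 and 6.38 FPKM, against 3.64 and 3.40 FPKM for AT5G20000. RPT6A and AT5G20000 are tandem neighbours on the plus strand of chromosome 5, at chr5:6751798-6755315 and chr5:6756633-6759800 on TAIR10.1, with 1317 bp between them. Their coding sequences were 94.4% identical, the most of any pair, and shared an exact run of 104 bases at coding positions 694 to 797 of RPT6A. It is the longest exact run that the coding sequences share.
RPT6A/AT5G20000: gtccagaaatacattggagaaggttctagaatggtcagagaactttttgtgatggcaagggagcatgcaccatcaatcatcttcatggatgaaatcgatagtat
Of the 50-base windows of the transcripts, 145 occurred in both genes, which is 6.65% of those of RPT6A and 8.32% of those of AT5G20000. No 150-base window, the read length of the libraries, was shared. How reads that match both copies were assigned is not known, and the RPT6 values are uncertain to that extent.

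Of the 4 RPN members, RPN10 (AT4G38630), a ubiquitin receptor, was the highest, with 45.5 and 44.6 FPKM. RPN11 (AT5G23540), the metalloprotease that removes ubiquitin chains, had 16.3 and 15.5 FPKM. RPN12a (AT1G64520), a lid subunit, had 16.5 and 15.5 FPKM. RPN1A (AT2G20580), a large scaffold subunit of the base, was the lowest of the 4, with 3.86 and 3.68 FPKM. RPN11 and RPN12a overlapped, and RPN10 lay above them and RPN1A below them in both libraries. The span of RPN12a overlaps by 36 bp a gene on the opposite strand, AT1G64510, which averaged 372 FPKM. Of all members, 14 overlapped another annotated gene. Among them, PBD1 shared 398 bp with AT3G04285, which had no value. RPT1A shared 320 bp with AT1G53730, at 2.63 FPKM, and PBF1 138 bp with AT3G60810, at 10.8 FPKM.

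Core genes lay above RPT genes as a group. The median log2(FPKM + 1) was 4.70 for the core and 3.17 for the RPT genes in replicate 1, a difference of 1.52, and the difference was 1.49 in replicate 2. On the mean of the replicates the difference was 1.53, which is 2.89-fold on the FPKM + 1 scale. The groups overlapped, since 11 of the 23 core genes lay above every RPT gene and 5 of the 10 RPT genes below every core gene. Exon length moved with this difference: exons summed to 872 to 1469 bp in core genes and to 1524 to 2228 bp in RPT genes. Table genes above 1 FPKM in the length range of the RPT genes had a median of 5.01 FPKM, against 10.2 FPKM in the range of the alpha genes and 12.7 FPKM in that of the beta genes. After subtracting the median of the 500 table genes nearest in exon length to each member, at any level, the difference was 1.07. This alternative was chosen after seeing the data. Over table genes at any level, the median was 1.69 FPKM in the RPT range, 2.19 FPKM in the alpha range and 2.44 FPKM in the beta range. These medians lay closer together than those above 1 FPKM. The difference centred on genes above 1 FPKM only was not computed.

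**Figure D2:**
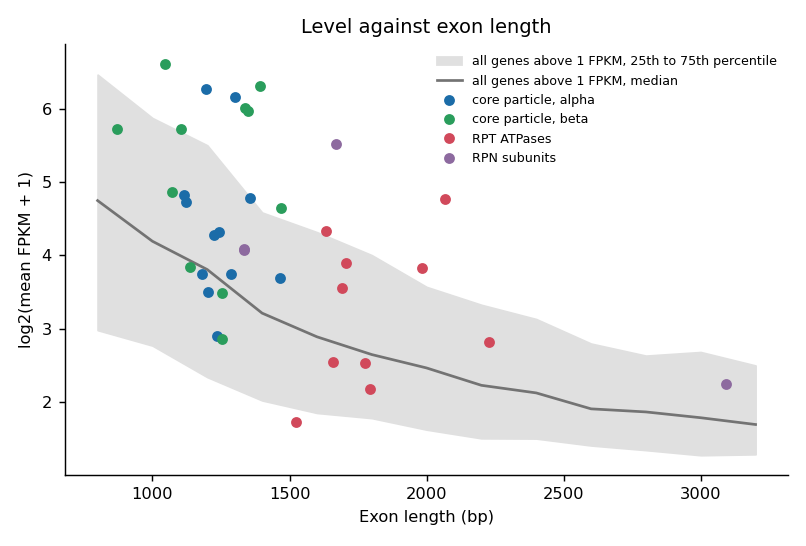
Mean log2(FPKM + 1) over the replicates against summed exon length in bp for the 37 genes, coloured by class, over the median (line) and the 25th to 75th percentile (band) of all genes above 1 FPKM in 200-bp bins. The RPT genes lay to the right of every core gene, where the level of all genes was lower too.

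The level of a subunit, taken as the sum of FPKM over its paralogs, was obtained for 24 subunits. The median was 25.8 FPKM, and the levels ranged from 3.77 ± 0.13 FPKM for RPN1 to 115.0 ± 18.3 FPKM for PBD (SD, n = 2). The highest level was 30.5-fold the lowest over all subunits (23.5-fold with the further copies added), against 6.24-fold within the core and 2.74-fold within the RPT ring. Since each subunit of the core or the RPT ring is present in equal copy number in the complex, these values describe how unevenly the transcripts were distributed over equimolar positions. The 6 RPT sums were the most even group, with an SD of log2 level of 0.54, against 0.99 for the 14 core subunits. Exon length differed too, with 3091 bp for RPN1A, against 872 bp for PBD1 and 1336 bp for PBD2. Genes above 1 FPKM had a median log2(FPKM + 1) of 1.79 around 3000 bp, against 4.75 around 800 bp and 3.21 around 1400 bp. The part of exon length in the spread of the subunit levels was not tested.

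At the top, PBD, PBC, PAB, PAD and PBB formed a run in which each neighbour overlapped the next. PBC reached 110.4 ± 14.1 FPKM, PAB 103.4 ± 13.2 FPKM, PAD 95.8 ± 2.41 FPKM and PBB 88.2 ± 9.06 FPKM (SD, n = 2). PBG, PBA and RPN10 followed, each apart from its neighbours in both replicates. PBE, PBF, PAG, RPT3, PAF, PAE and RPT2 formed a second run of overlapping neighbours between 30.4 and 24.0 FPKM. Below PAA and PAC, the levels of RPT5, RPN12, RPN11 and RPT4 overlapped near 16 FPKM, and RPT1, RPT6 and RPN1 lay below them, each apart from the next. Of the 23 steps in this order, 13 joined subunits whose replicate values overlapped.

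**Figure D3:**
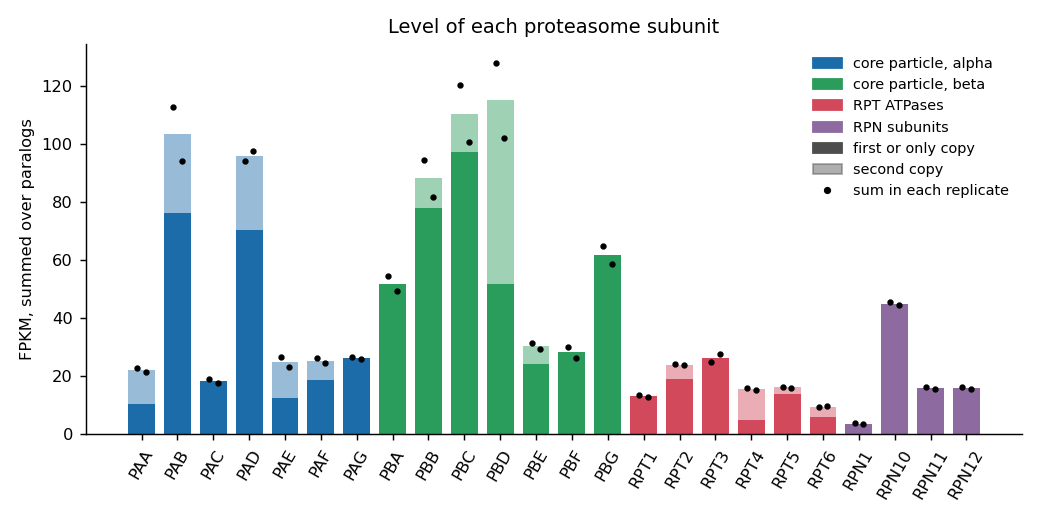
FPKM summed over the member genes of each of the 24 subunits, as stacked bars of the mean over the replicates (dark, first or only copy, and light, second copy), with points for the sum in each replicate. PBD, PBC, PAB, PAD and PBB stood above all other subunits, and the RPT sums lay between 9.60 and 26.3 FPKM.

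The paralogs of a pair were compared within each library by log2((first + 1)/(second + 1)). With this pseudocount, the copies differed at least 2-fold in both replicates in 8 of the 13 pairs. In all 8 the copy named first was the higher one. These were 6 of the 9 core pairs and 2 of the 4 RPT pairs. The common direction depended on the pseudocount. In plain FPKM, RPT4A/AT1G45000 also passed, at 0.440 and 0.455 in the replicates, with the second copy higher. The largest ratios were those of PBB1/PBB2, 2.82 ± 0.03, and PBC1/PBC2, 2.78 ± 0.02 (log2, SD, n = 2). PBB1 supplied 88.6% and 88.3% of the PBB signal in the replicates, and PBC1 88.0% and 87.9% of the PBC signal. RPT5A/RPT5B followed at 2.17 ± 0.13, with RPT5A at 86.7% and 84.7% of the sum. RPT2a/RPT2b at 1.80 ± 0.01 and PBE1/AT3G26340 at 1.79 ± 0.02 gave about the same ratio in an ATPase and a core subunit.

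The pairs PAB1/AT1G79210, PAD1/PAD2 and PAF1/PAF2 lay close together at 1.45 ± 0.02, 1.44 ± 0.19 and 1.41 ± 0.07 (log2, SD, n = 2). The PAD ratio had the largest spread of all pairs, since PAD2 was one of the few members that was higher in replicate 2. RPT4A/AT1G45000, at -1.02 ± 0.03, lay on the 2-fold line, with -1.04 in replicate 1 and -0.99 in replicate 2, and its linear ratio of means was 2.24-fold in favour of AT1G45000. RPT6A/AT5G20000 was at 0.65 ± 0.14, PAA1/PAA2 at -0.19 ± 0.02 and PBD1/PBD2 at -0.28 ± 0.02. PAE1/PAE2, at -0.01 ± 0.07, was the only pair whose direction differed between the replicates.

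**Figure D4:**
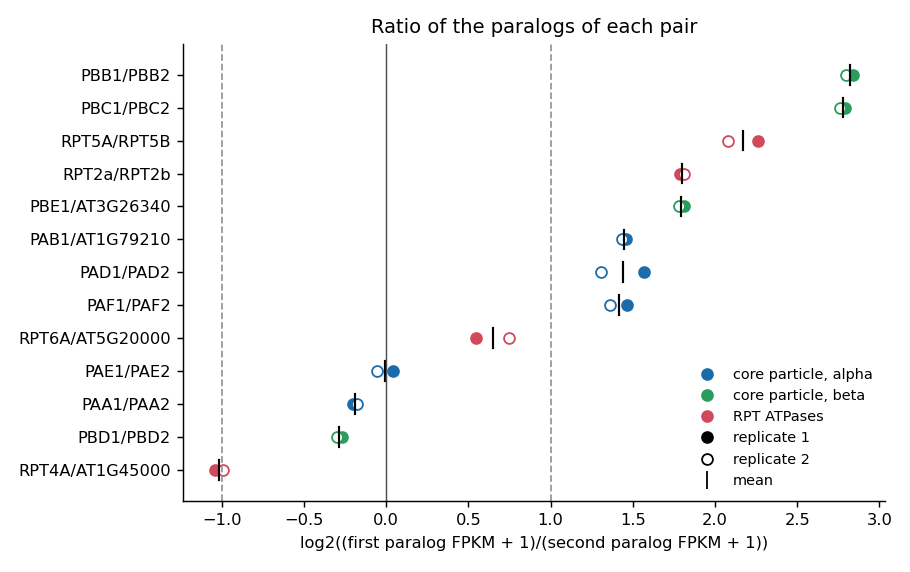
The log2 ratio of the first over the second paralog, log2((FPKM + 1)/(FPKM + 1)), for the 13 pairs in replicate 1 (filled) and replicate 2 (open), with the mean as a short bar and dashed lines at 2-fold. PBB1/PBB2 and PBC1/PBC2 lay farthest from 0, at 2.82 and 2.78, and PAE1/PAE2 at -0.01.

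Coding identity ran from 76.8% for PBD to 94.4% for RPT6, and across the 13 pairs its Spearman rho with the size of the ratio was -0.08, a description over pairs that share both libraries. The very unequal PBB and PBC pairs were 88.0% and 86.5% identical, while the nearly equal PAE pair was 88.1% identical. In 11 of the 13 pairs no 50-base window was shared between the copies, and the PAA pair shared 4. RPT1A shared 17 such windows with AT1G53780, an annotated proteasome ATPase outside the set, and 32 of the 37 members shared none with any other gene.

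The copies that entered alone also had weaker relatives in 4 cases. PAC1 averaged 18.4 FPKM, against 0.65 FPKM for AT4G15165, and RPT1A 13.2 FPKM, against 0.74 FPKM for AT1G53780. RPN12a averaged 16.0 FPKM, against 1.68 FPKM for RPN12b, and RPN1A 3.77 FPKM, against 1.12 FPKM for RPN1B. The log2 ratio in these 4 ran from 1.17 ± 0.11 for RPN1A to 3.56 ± 0.09 for PAC1 (SD, n = 2). By copy type, the 11 single members had a median of 26.3 FPKM, the higher copies of the 13 pairs 19.2 FPKM and the lower copies 10.2 FPKM. The copies of the pairs were sorted by these same values, so the order of their medians was fixed in advance. The groups also differed in class, since all RPN genes were single members.

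TGGGC or its reverse complement occurred between 250 bases before and 50 bases after the annotated start in 22 of the 37 members, or 59.5%. The motif was searched because it is known from proteasome genes of Arabidopsis, so a higher share in the members is no independent result. Over the 26704 coding genes of the table the share was 26.2%, and over those in the top quartile 32.5%. The beta genes held it most often, in 9 of 11, against 6 of 12 alpha genes, 5 of 10 RPT genes and 2 of 4 RPN genes. Before the start alone, 16 of 37 members held it, or 43.2%, against 22.9% of all coding genes and 28.2% of those in the top quartile. The matches before the start lay within 125 bases of it. Members with the motif had a median of 19.1 FPKM and those without it 13.3 FPKM, and the ranges overlapped almost fully.

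Within pairs, the motif occurred in both copies of 5, in one copy of 4 and in neither copy of 4. The 4 pairs without it were PAA, PAB, RPT4 and RPT6, and a relation to level was not tested. RPT2a held 3 matches before its start, while the only match of RPT2b lay after its start. The longer telo-box, AAACCCTA on either strand, which is known from promoters of genes for translation, occurred in 1 member, RPT4A, or 2.70%, against 6.16% of all coding genes. Both motifs hold a run of C on one strand, and a match marks letters only.

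Replicates agreed closely for most members. The SD was 5.90% of the mean at the median member and 16.7% at most, for PBD1. Only PAD2, RPT3, RPT5B and RPT6A, or 4 of 37, were higher in replicate 2, against 31.7% of the 13074 genes above 1 FPKM. The median log2 ratio of replicate 2 over replicate 1 was -0.08 for the members and -0.07 for those 13074 genes, whose SD was 0.17. Measured from that common shift, the median of the 13074 genes, 17 of 37 members were higher in replicate 2. By construction, about as many of the 13074 genes lie above this median as below it. By class the median log2 ratio was -0.17 for the beta genes and -0.03 for the RPT genes. The summed leaf markers were 85418 FPKM in replicate 2 and 67809 FPKM in replicate 1, and the part of this shift in the members' values was not tested.

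The rest of the 26S proteasome, 19 genes, had a median of 3.78 FPKM, below that of the 37 members, with 17 above 1 FPKM and 7 in the top quartile. The list had a median exon length of 1789 bp, against 1335 bp for the members. It also holds the weaker copies AT4G15165, AT1G53780, RPN1B and RPN12b named above. The part of either in the lower median of the list was not tested. Its highest genes were DSS1(I), with 163.4 and 126.2 FPKM, and DSS1(V), with 160.0 and 121.9 FPKM, both coding for the small lid protein DSS1. EMB2719 had 33.3 and 30.3 FPKM and ATS9, annotated as a non-ATPase subunit, 22.3 and 22.4 FPKM. The lowest was AT4G15165, at 0.65 FPKM. Both DSS1 genes lay above every one of the 37 members on average.

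Among 7 activators, regulators and assembly genes, 3 were above 1 FPKM. AT1G67250, annotated as the maturation factor UMP1, which helps to assemble the core in yeast, had 54.0 and 36.8 FPKM, while the second UMP1 gene, AT5G38650, was listed at 0 in both libraries. AT3G53970, a proteasome inhibitor-like protein, had 26.3 and 24.99 FPKM. NAC2, a NAC transcription factor, had 4.17 and 4.11 FPKM, and AT2G26780 averaged 0.61 FPKM. The median of the list was 0.61 FPKM.

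The 15 ubiquitin and shuttle genes had a median of 8.55 FPKM. The polyubiquitin genes UBQ11, with 240.5 and 210.7 FPKM, and UBQ10, with 130.2 and 126.0 FPKM, were the highest, followed by UBQ14 at 66.3 FPKM and RAD23D, a shuttle receptor for ubiquitinated proteins, at 58.3 FPKM. UBP7 was the lowest, at 1.73 FPKM. The polyubiquitin genes hold repeats of one coding unit, so their values depend on how shared reads were assigned.

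The COP9 signalosome, a complex related in architecture to the lid that acts on ubiquitin ligases, was lower. Its 10 genes had a median of 3.15 FPKM, against 16.0 FPKM for the proteasome members. Exon length differed too, with a median of 1607 bp, against 1335 bp for the members, and the part of length was not tested. CSN5A, the catalytic subunit of the complex, was the highest with 10.4 and 9.73 FPKM, followed by FUS5 at 8.35 FPKM, CSN6A at 5.37 FPKM and COP9 at 5.28 FPKM. CSN5B, the second copy of the catalytic subunit, was the lowest, at 0.57 FPKM.

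**Figure D5:**
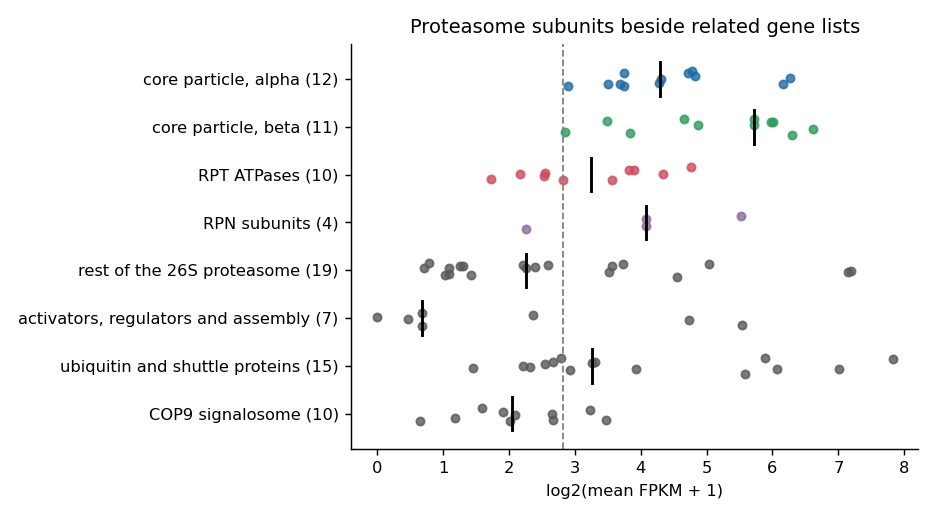
Mean log2(FPKM + 1) of each gene in the 4 proteasome classes and in 4 related lists (number of genes in brackets), with the median of each as a black bar and the 75th percentile of all genes as a dashed line. The beta genes had the highest median, and most COP9 signalosome genes lay below the dashed line.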

How the data were processed

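The table analysed here held FPKM for 27411 genes in 2 WT RNA-seq libraries (polyA RNA, 150-bp paired ends). The authors aligned reads to TAIR10 with TopHat2 2.0.9 and computed the deposited FPKM values with Cufflinks 2.1.1. No source used here names the annotation release, the strand setting or the handling of multi-mapped reads. Both sample columns were matched by name, and 0 other sample columns were left over.

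FPKM is not a count, so no count model was run. Values were averaged over replicates and ratios taken as log2 with a pseudocount of 1 FPKM, which understates the ratio of low genes. Gene models, exon lengths (26709 of the table genes had one) and sequences came from the RefSeq TAIR10.1 assembly. The FPKM table held no coordinates. Coding identity came from global alignment with Biopython 1.88, and other steps used Python 3.11.15, numpy 2.4.6, pandas 2.3.3 and scipy 1.17.1. Ratio functions were tested on simulated data. Fragment numbers are approximate, since they rest on reference exon lengths and on the value taken as a single fragment. They cover counting error only. Members and lists were chosen with earlier results of these data known. All 37 members are accounted for, and of each related list the 4 highest genes and the lowest are named, with other genes named where a member or a further copy of its subunit is at issue. Alternatives were each replicate alone, rescaling both libraries to the same FPKM sum, other pseudocounts, thresholds and copy sets.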

Additional observations from a re-analysis of the deposited data

How the results depend on the processing

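No paired analysis was possible because both libraries belong to one group. With either replicate alone, the core minus RPT difference was 1.49 to 1.52 and the median size of the paralog ratio 1.36 to 1.47. The direction of PAE1/PAE2 turned, at -0.057 to 0.044 with either replicate alone. Rescaling both libraries to the same FPKM sum gave an RPT median of 8.58. Adding the other 26S genes gave a median of 12.5 FPKM. The core minus RPT difference was 1.07 after centring on table genes of like exon length at any level. Both were chosen after seeing the data. The subunit spread was 23.5-fold (SD of log2 1.19) with the further copies added, 25.8-fold with the higher paralog alone, and 6.24-fold (SD of log2 0.99) over core subunits only, the last also added after seeing the data. At 4-fold, 3 pairs passed. With pseudocounts of 0.1 or 0.01, 9 pairs were at least 2-fold apart, RPT4A/AT1G45000 being the added one, with its second copy higher. Centred on the median of all genes above 1 FPKM, 17 members were higher in replicate 2. By construction, about as many of all these genes lie above that median as below it. With one group of 2 libraries, only the spread between these libraries is known.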

Other observations

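The TGGGC motif was also counted in the related lists. It occurred in 11 of 19 promoters of the rest of the 26S proteasome, or 57.9%, all before the start, and in 5 of 10 of the COP9 signalosome, against 26.2% of all coding genes. Before the start alone, it occurred in 2 of 10 COP9 signalosome promoters, or 20%, against 22.9% of all coding genes. This is a description of reference sequence, with no test.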
